A study of Vitis vinifera with 2 samples.

Results

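HY5, HYH, ABF2 and bZIPC22 are grapevine genes that encode transcription factors of the basic leucine zipper (bZIP) family, and their peaks were drawn from a map of the binding of another bZIP factor, VlbZIP30. All peaks were taken whose nearest gene, or whose gene in the annotation, was VIT_04s0008g05210 (HY5), VIT_05s0020g01090 (HYH), VIT_18s0001g10450 (ABF2) or VIT_07s0005g01450 (bZIPC22). This gave 13 of the 49173 peaks in the list, and each of the 4 genes had at least 2 of them. The list named 20804 genes in these 2 columns. The map came from chromatin immunoprecipitation with sequencing (ChIP-seq) on the top leaves of grapevine (Vitis vinifera) plants aged 4 months that had gone without water for 20 days. All plants carried VlbZIP30 fused to 3 copies of the FLAG epitope under the CaMV35S promoter, a viral promoter active in most plant tissues. The libraries were 1 precipitation with anti-FLAG M2 and 1 control, which its title calls input and its antibody field calls IgG. How many transgenic lines or plants went into them is not given in the sources used here.

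A bZIP protein binds DNA as a dimer through a basic region, and most plant members recognise short elements built around an ACGT core. In Arabidopsis, HY5 acts downstream of the photoreceptors and is removed in darkness through the COP1 ubiquitin ligase. HYH is its close homologue there and acts partly redundantly with it. ABF2 belongs to the factors that bind abscisic acid response elements, and in Arabidopsis such factors are activated by SnRK2 kinases when abscisic acid accumulates under water deficit. In grapevine, bZIPC22 has been linked to the regulation of flavonoid synthesis. VlbZIP30 itself has been tied to abscisic acid signalling and dehydration tolerance. The comparison addressed which genes VlbZIP30 binds during drought. The 4 genes lie on different chromosomes.

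With 1 library per group, the spread between replicates could not be measured and conditions could not be tested against each other. No library without the tag, and none from watered plants, was analysed here, so neither precipitation without the tagged protein nor an effect of drought was measured. The peak score is the authors' value for each peak on a scale that the list does not name, and it was used only to rank peaks. Its median was 7.56, its quartiles were 3.64 and 18.5, and the highest score in the list was 205. The depth of the libraries is unknown. Peaks, not transcripts, were measured, so the list does not show whether any of the genes was expressed at a different level. For each peak the list states how far its centre lies from a transcription start site (TSS) and on which side, and the TSS and strand of each of the 4 genes were recovered from these signed distances.

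Each of the 4 genes had 1 peak that covered its TSS, and that peak was the highest-scoring peak of its gene. Peaks over a TSS scored higher in the list in general, with a median of 16.4 against 7.56 for all peaks. For how many listed genes the TSS peak was the highest was not counted. By score the order was ABF2 (66.9), HY5 (55.0), HYH (40.6) and bZIPC22 (23.0). The TSS peak of ABF2 outscored 98.2% of all peaks in the list, that of HY5 96.5%, that of HYH 92.3% and that of bZIPC22 80.1%. The other 9 peaks scored from 1.75 to 13.0, all below the upper quartile of the list, and were 202 to 1051 bp long. The TSS was covered at 4 of 4 genes, against 59.7% of all listed genes, and it was covered by a peak of the upper score quartile at 4 of 4 genes, against 27.2%. Both shares count only peaks whose nearest gene is the covered one. The 4 genes were each nearest to 2 or more peaks. Among the 12847 listed genes of that kind, a peak of any gene covered the TSS at 69.8%. For cover by an upper-quartile peak, the share among these genes was not computed. Of the 12417 listed genes with a covered TSS, 5649 had an upper-quartile peak over it. An upper-quartile peak anywhere at the gene was present at 46.3% of listed genes. Among the 13 peaks, 4 were in the upper score quartile, against 25.5% of the list, and 4 covered the TSS of the nearest gene, against 25.3%. The share of upper-quartile peaks among the 13 was thus close to that of the list, while the high scores were all at the start sites. Genes without any peak are missing from the list, so these background shares do not refer to all genes of the genome, and with 4 chosen genes no test was made.

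**Figure D1:**
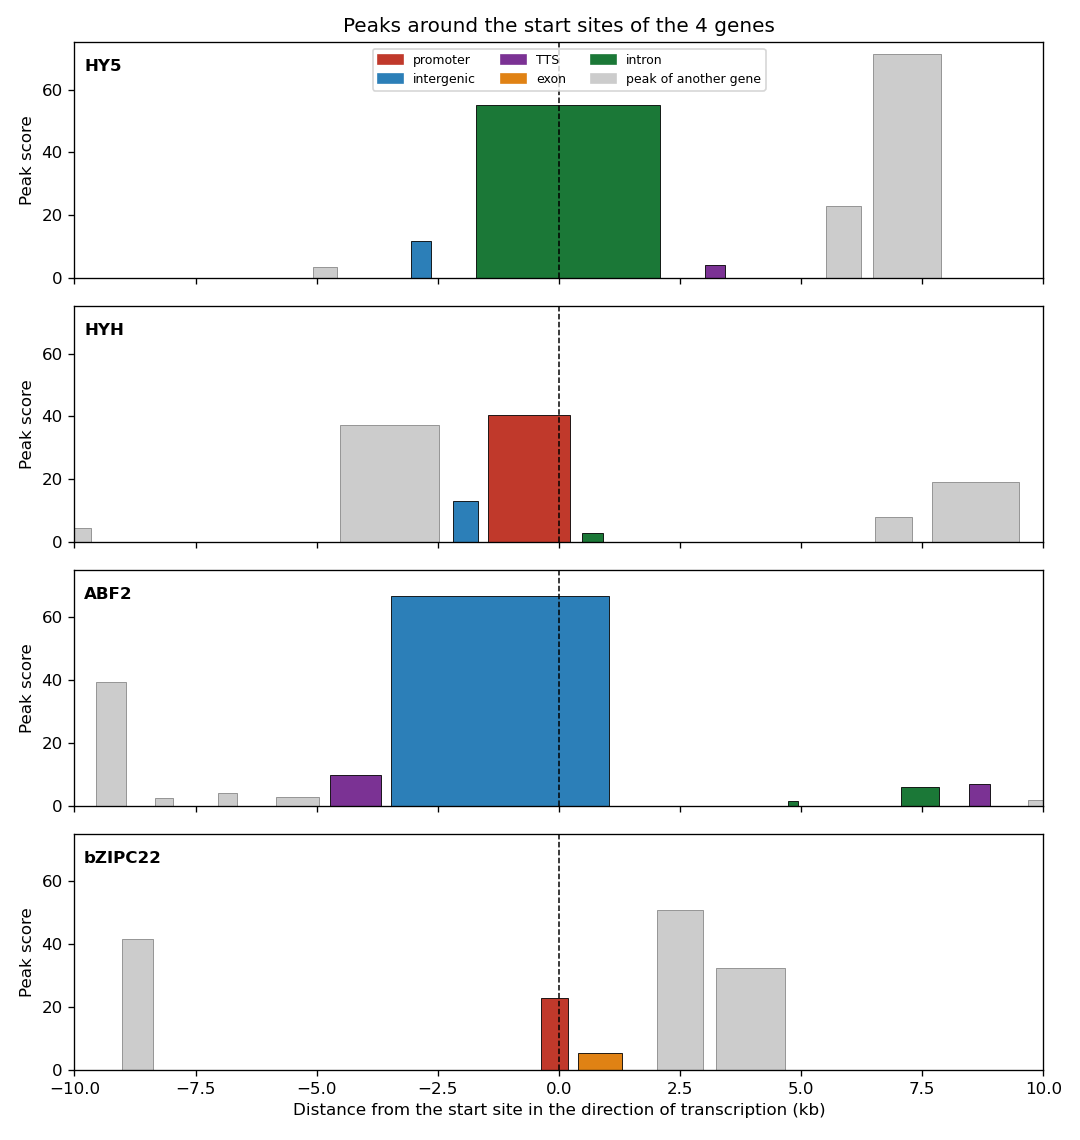
Peaks within 10 kb of the TSS of each gene, with the direction of transcription to the right. The horizontal axis is the distance from the TSS in kb, bar width is peak length, bar height is the peak score, colour gives the annotation class of the peaks assigned to the gene, and grey bars are peaks assigned to other genes. The widest and highest coloured bars, at ABF2 (score 66.9) and HY5 (55.0), straddle the TSS, and bZIPC22 has a narrow bar of score 23.0 at its TSS with higher grey bars downstream.

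HY5 lay on the plus strand of chromosome 4 with its TSS at 4716191. Its TSS peak ran from 4714488 to 4718277 and was 3790 bp long, longer than 98.7% of the peaks in the list. It reached 1703 bp upstream of the TSS and 2086 bp into the gene. Its centre lay 191 bp downstream of the TSS, in intron 1 of 3, so the list classed it as an intron peak although it covers the TSS and the sequence upstream of it. Of the 7190 intron peaks, 10.3% covered the TSS of their nearest gene, and the HY5 peak ranked 112 among all intron peaks by score. Among peaks of similar length (the same length decile) it outscored 84.7%.

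A second HY5 peak, from 4713129 to 4713545, was intergenic and centred 2854 bp upstream of the TSS. It was 417 bp long and scored 12.0, above 81.5% of the peaks in its length decile. The third, from 4719203 to 4719620, was at the transcription termination site (TTS) of HY5, centred 3220 bp downstream of the TSS, and scored 4.08, above 27.7% of all peaks. Peaks thus stood upstream of HY5, across its TSS and at its end, separated by gaps of 942 and 925 bp.

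HYH, the homologue of HY5, lay on the plus strand of chromosome 5 with its TSS at 2860048. Its TSS peak, from 2858579 to 2860286, was classed as promoter, was 1708 bp long and had its centre 616 bp upstream of the TSS. It reached 1469 bp upstream of the TSS and only 238 bp into the gene. By score it ranked 1348 among 12387 promoter peaks, and it outscored 69.0% of the peaks in its length decile. An intergenic peak from 2857852 to 2858368, centred 1938 bp upstream, scored 13.0 and was separated from the TSS peak by 210 bp. A peak from 2860518 to 2860962 in intron 2 of 3 scored 2.82, above 12.8% of all peaks, and stood 231 bp beyond the TSS peak.

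The 2 homologues thus had the same number of peaks, 3, as had 3875 of the 20804 listed genes. Both had an intergenic peak of similar score upstream (12.0 at HY5 and 13.0 at HYH) and a high-scoring peak over the TSS. The upstream peaks outscored 56.9% and 59.1% of intergenic peaks. How many listed genes had such a peak was not counted. ABF2 also had a further upstream peak, which scored 9.85 and was classed as TTS of a neighbouring gene. A TSS peak of the upper score quartile was present at ABF2 and bZIPC22 too. The third peak lay at the TTS of HY5 but in intron 2 of HYH. The homologues also differed in where the TSS peak lay. At HY5, 45.0% of it was upstream of the TSS, and at HYH 86.1%, against a median of 54.7% over the 12417 peaks in the list that covered a TSS. No replicate was available to show how much such borders vary.

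The sequence upstream of HYH was shared with another gene. VIT_05s0020g01080 had its own TTS peak on the far side, from 2849461 to 2850384, which places it on the minus strand with its TSS at 2855352. HYH and this gene were therefore transcribed away from each other, with 4696 bp between their TSSs. In that stretch lay 3 peaks, which covered 85.6% of it. The peak nearest to VIT_05s0020g01080, from 2855535 to 2857565, scored 37.2, above 90.6% of all peaks, and stood 286 bp from the upstream peak of HYH. It did not cover the TSS of VIT_05s0020g01080. Of the 3 peaks, 2 were counted for HYH, and the intergenic one of these was assigned by its nearest TSS alone.

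ABF2 lay on the minus strand of chromosome 18 with its TSS at 8769742, and its TSS peak was the longest and highest-scoring of the 13. It ran from 8768705 to 8773207 and was 4503 bp long, which ranked 343 by length in the whole list. It reached 3465 bp upstream of the TSS and 1037 bp into the gene. Because its centre lay 1214 bp upstream, it was classed as intergenic: promoter peaks whose own gene was the nearest had centres from 1000 bp upstream to 100 bp downstream of the TSS. Only 1.51% of the 15989 intergenic peaks covered the TSS of their nearest gene. The ABF2 peak ranked 356 among intergenic peaks by score, and 26 among the 242 of them that covered a TSS. It outscored 92.1% of the peaks in its length decile.

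The other 4 peaks assigned to ABF2 were lower, and 3 of them were also tied to a neighbouring gene. A peak from 8773410 to 8774460 was centred 4193 bp upstream of the ABF2 TSS and was annotated to the TTS of VIT_18s0001g10460. It scored 9.85 and was separated from the TSS peak by 202 bp. Within the gene, intron 4 of 4 held a peak of 202 bp from 8764810 to 8765011 that scored 1.75, above 1.06% of all peaks, and a peak of 780 bp from 8761903 to 8762682 that scored 5.98. The last peak, at the TTS of ABF2 from 8760837 to 8761274, scored 7.02. The last 2 lay nearer to the TSS of VIT_18s0001g10440 than to that of ABF2. VIT_18s0001g10460 lay upstream on the same strand, with its TSS 9355 bp from that of ABF2 and a TSS peak that scored 39.5. VIT_18s0001g10440 lay on the plus strand beyond the end of ABF2, and the highest score among the peaks nearest to it, 7.02, was that of the ABF2 TTS peak.

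bZIPC22 lay on the plus strand of chromosome 7 with its TSS at 3987031, and its TSS peak was the shortest and lowest of the 4. This promoter peak, from 3986671 to 3987214, was 544 bp long, close to the list's median of 517 bp, and scored 23.0. It reached 360 bp upstream and 183 bp downstream of the TSS, with its centre 89 bp upstream. It outscored 71.3% of promoter peaks, a lower share than the 80.1% of all peaks, but 82.8% of the peaks in its length decile. A further 214 bp downstream, a peak from 3987429 to 3988339 in the gene's only exon scored 5.48, above 38.9% of all peaks and 58.0% of exon peaks. At this gene the nearby peaks of the neighbours scored higher. A peak from 3989063 to 3990013, 723 bp beyond the exon peak and nearest to VIT_07s0005g01460, scored 51.1. Upstream, the next peak was 8010 bp away, at the TSS of VIT_07s0005g01440, and scored 41.7.

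**Figure D2:**
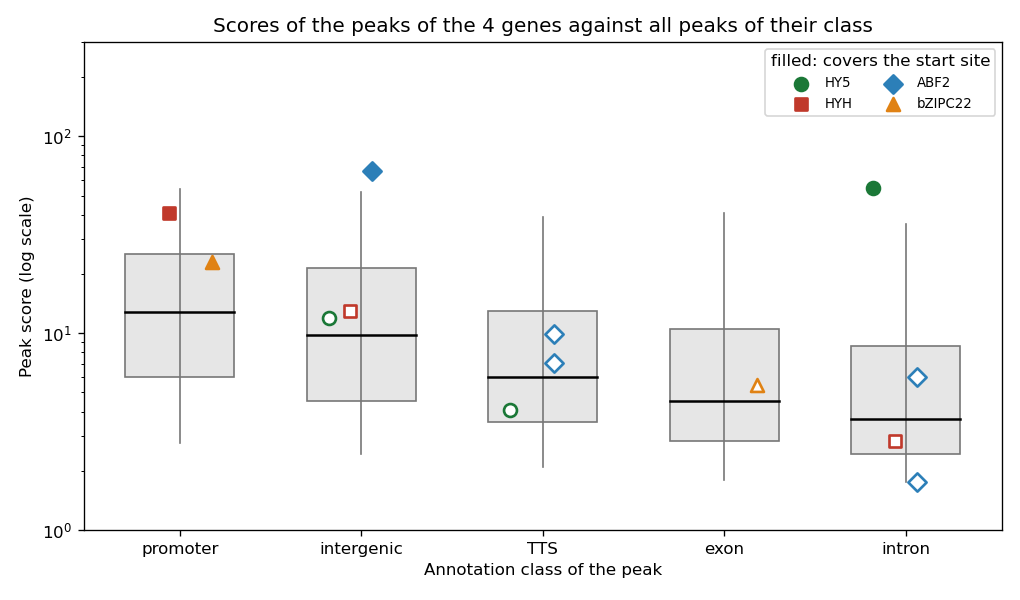
Scores of the 13 peaks by annotation class, on a log scale. Boxes give the quartiles and median of all peaks of the class, lines run from the 5th to the 95th percentile, and symbols are the peaks of the 4 genes, filled where they cover the TSS of that gene. The filled symbols of ABF2 (66.9, intergenic) and HY5 (55.0, intron) lie above the 95th percentile of their classes, and the open symbols lie within the lines or, at 1.75, on their lower end.

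Although all 4 had a peak over the TSS, 2 of the 4 genes, HYH and bZIPC22, had a promoter-class peak, against 57.2% of listed genes. By class the 13 peaks were 4 intron, 3 intergenic, 3 TTS, 2 promoter and 1 exon peak. In the whole list, 73.6% of the 12417 peaks over a TSS were classed as promoter, 14.8% as exon, 5.94% as intron and 1.95% as intergenic. The combination of intergenic, intron and TTS peaks found at both HY5 and ABF2 was shared by 217 of the listed genes (1.04%). It requires at least 3 peaks, and 56.7% of listed genes had fewer. The classes also fell differently, since the TSS peak was the intron peak at HY5 and the intergenic peak at ABF2. The combination at HYH occurred at 446 genes (2.14%) and that at bZIPC22 at 772 genes (3.71%). ABF2 had 5 peaks, more than 86.8% of listed genes had. HY5 and HYH had 3 each and bZIPC22 had 2, against a median of 2 over listed genes.

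Set against the peaks that covered a TSS, the order of the genes was the same. All peaks over a TSS had a median score of 16.4 (quartiles 8.12 and 31.1) and a median length of 824 bp. ABF2 outscored 96.4% of them, HY5 93.0%, HYH 84.7% and bZIPC22 63.0%. The reach of the peaks separated the genes in another way. Upstream of the TSS the reach at ABF2 exceeded that of 98.9% of the TSS peaks, at HY5 93.1%, at HYH 90.7% and at bZIPC22 43.8%. Into the gene, HY5 came first with 95.9%, ABF2 followed with 87.9%, HYH with 34.3% and bZIPC22 with 24.2%. HY5 and ABF2 had peaks of 3 kb or more, of which the list held 1202. By score among these, ABF2 ranked 154 and HY5 ranked 287.

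**Figure D3:**
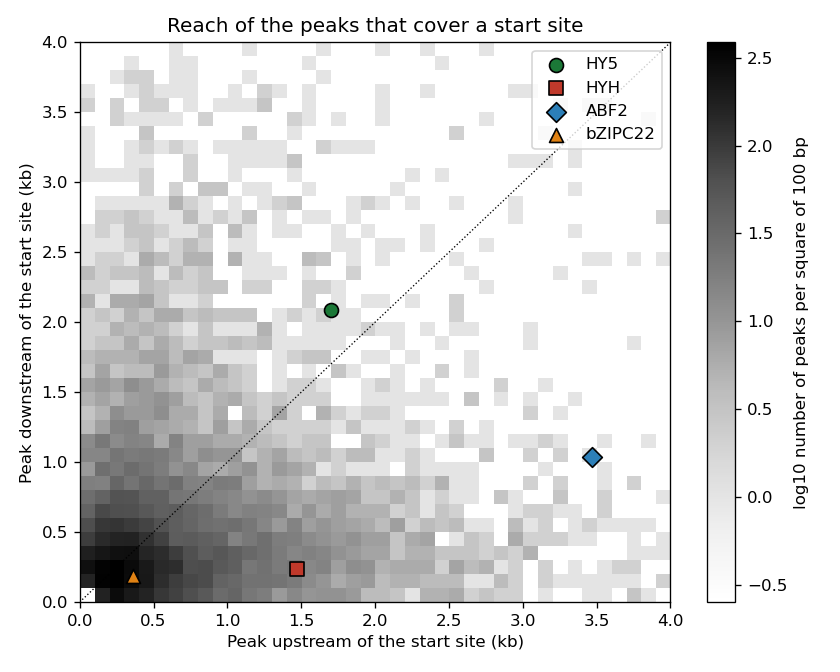
Length of TSS-covering peaks upstream (horizontal axis, kb) and downstream (vertical axis, kb) of the TSS. Grey squares of 100 bp give the log10 number of the 12417 such peaks, shown up to 4 kb on each axis, and the coloured symbols are the 4 genes. ABF2 lies far to the right, HY5 just above the dotted line of equal reach, HYH along the lower edge, and bZIPC22 inside the dense corner.

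Counting peaks of any gene, the 5 kb upstream of the TSS were covered to 91.2% at ABF2, 80.3% at HYH, 50.7% at HY5 and 7.20% at bZIPC22, against a median of 23.8% over the 12847 genes whose TSS could be placed from these distances alone. Genes that were the nearest gene of a single peak are left out of this median, since that distance alone does not give the strand. Downstream, 69.4% of the first 5 kb was covered at bZIPC22, 50.1% at HY5, 24.8% at ABF2 and 13.7% at HYH, against a median of 19.7%. ABF2 and HYH were thus covered mainly on the upstream side, and HY5 about equally on both sides. bZIPC22 was covered mainly on the downstream side, where the peaks of VIT_07s0005g01460 lie. The cover upstream of HYH included the peak of 2031 bp nearest to VIT_05s0020g01080, which was not counted for HYH. That upstream of ABF2 included the peak of 1051 bp annotated to the TTS of VIT_18s0001g10460. This peak was counted for ABF2 by its nearest TSS.

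**Figure D4:**
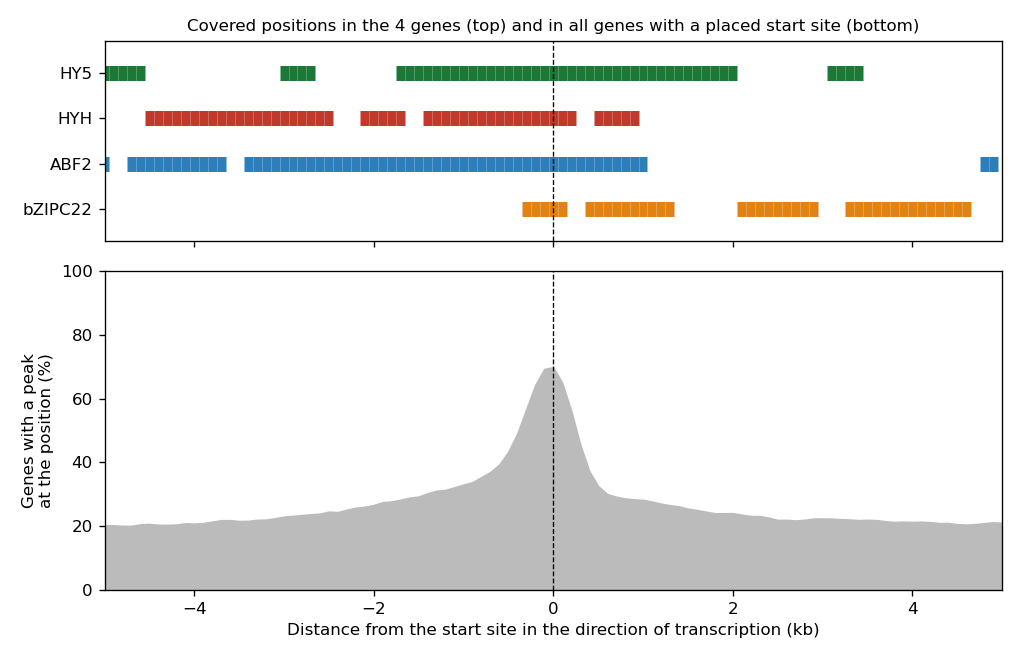
Positions covered by a peak of any gene within 5 kb of the TSS, in the direction of transcription. Coloured bars in the upper panel mark covered positions at each of the 4 genes in steps of 100 bp, and the grey area in the lower panel gives the percentage of the 12847 genes with a placed TSS that have a peak at the position. Cover peaks at 69.8% of genes at the TSS, where all 4 genes are covered, and the long bars of ABF2 and HYH extend upstream, where fewer genes of the list are covered.

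The peaks also differed in how they stood out from their surroundings. Within 50 kb on either side of the TSS, the ABF2 peak had the highest score of 37 peaks, the next highest score being 47.4. The HY5 peak was second of 17, after a peak of VIT_04s0008g05220 with a score of 71.3. The HYH peak was second of 28, with 40.6 against 40.7 for the highest. The bZIPC22 peak was sixth of 17. Over whole chromosomes, the ABF2 peak ranked 63 among 3782 peaks on chromosome 18, HY5 98 among 2754 on chromosome 4, HYH 198 among 2692 on chromosome 5, and bZIPC22 560 among 2765 on chromosome 7.

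Several of the 13 peaks were parts of nearly continuous stretches. No neighbouring peaks in the list were less than 197 bp apart, and 9.67% were 300 bp or less apart. The gaps on both sides of the HYH TSS peak (210 bp upstream and 231 bp downstream) were close to that smallest gap. At ABF2 this held on the upstream side (202 bp) but not on the downstream side (3693 bp), and at bZIPC22 on the downstream side (214 bp) but not on the upstream side (8010 bp). At HY5 it held on neither side (942 bp upstream and 925 bp downstream). With peaks 300 bp or less apart counted as 1 region, the 13 peaks formed 9 regions. Whether the authors' peak caller joined peaks closer than this is not given in the sources used here.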

How the data were processed

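The submitters' processing notes name BWA, MACS2 and HOMER without their roles or versions. For the genome build, the gene annotation and the peak thresholds, the answer is not given in the sources used here. Together the authors deposited 1 peak list, with a peak score, an annotation class and a signed distance to the nearest TSS in bp for each peak, per the file headers. Columns of samples from outside the series numbered 0. Scores were only ranked. A peak covers a TSS when the TSS lies between its first and last base. TSS and strand were recovered where 1 position fitted all peaks of a gene; the recovery was tested on simulated data. Python 3.11.15 with numpy 2.4.6, pandas 2.3.3 and matplotlib 3.10.9 was used.

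Of the listed identifiers, 0 matched the RefSeq table of 29591 genes, so other genes keep their identifiers, and names of the 4 genes follow grapevine literature. No sequence was used, so motifs and the related pathway genes were not analysed here. The genes named were the 4 genes, those their peaks also name, and some of those of the nearest flanking peaks. These neighbours were named after their values were seen. The genes and lists were chosen with earlier results of these data known.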

Additional observations from a re-analysis of the deposited data

How the results depend on the processing

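Counts and ranks describe 1 list with 1 library per group; no replicate could be left out, and the depth, which limits how many low-scoring peaks are found, is unknown. No paired analysis was possible because the groups, of 1 library each, share a single peak list. The 13 peaks became 11 by nearest gene alone, 9 by annotated gene alone, and 9 with peaks 300 bp or less apart joined, an alternative chosen after seeing the data. At or above the median score 7 remained, and at or above the upper quartile 4, which follows from fewer peaks being considered. The genes with a promoter-class peak numbered 2 at either score limit, and the shares of listed genes at those limits were not computed. The count was 4 when any peak over the TSS was taken, against 59.7% of listed genes. It was also 4 with any peak overlapping the upstream 1 kb by 1 or by 100 bp. These overlap counts follow from cover of the TSS, since each TSS peak reached at least 360 bp upstream. Their shares over all listed genes were not computed. By centre 2 peaks lay within 200 bp of the TSS, and by nearest edge 4, which were the 4 that covered it.

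The share of peaks scoring below the TSS peak was given a 95% counting interval. This interval depends on the number of peaks in the list and measures no spread between replicates. The share stayed within it on the 19 numbered chromosomes for each gene, and moved under the other rankings. For HY5 (96.5% in the whole list) it was 98.4% in its class, 84.7% in its length decile, 91.9% over genes by highest score and 90.9% over genes with as many peaks. For HYH (92.3%) the values were 89.1%, 69.0%, 83.4% and 81.4%. For ABF2 (98.2%) they were 97.8%, 92.1%, 95.8% and 92.4%. For bZIPC22 (80.1%) they were 71.3%, 82.8%, 61.9% and 67.5%. Each in its own length decile, bZIPC22 thus stood above HYH, the reverse of their order in the whole list. The cause was not tested.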
